A study of Mus musculus with 19 samples.

Results

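Purkinje cells are the sole output neurons of the cerebellar cortex, and they are recognised by a small set of genes whose products shape calcium and G protein signalling. Here 8 such genes, *Pcp2*, *Pcp4*, *Calb1*, *Ppp1r17*, *Slc1a6*, *Rora*, *Pvalb* and *Gng13*, were followed in SCA17 knock-in and wild-type (WT) mice. They were taken by name, as the rows whose Ensembl identifier has one of these names in the GENCODE M21 annotation. All 8 were found among the 41128 genes with deposited counts, and all 8 were among the 16841 genes with enough counts for a test.

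A Purkinje cell fires intrinsically and receives excitation from parallel fibres and from a single climbing fibre. Glutamate acts there partly through a receptor coupled to phospholipase C, which raises inositol trisphosphate and releases calcium from stores, and calcium-binding proteins shape the resulting signals. Spinocerebellar ataxia type 17 (SCA17) is caused by an expanded polyglutamine tract in the TATA box-binding protein (TBP), and calbindin staining is a usual way to count the Purkinje cells that remain.

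RNA from 3 brain regions of C57BL/6 mice aged 3 months was sequenced in 19 libraries. Knock-in mice were germline SCA17 knock-in animals, which express TBP with the expanded tract from the endogenous gene in all tissues, so the change was not limited to Purkinje cells. The line was derived with EIIa-Cre mice, and the control mice were WT animals of the same age. There were 4 knock-in and 3 WT libraries of the cerebellum, while striatum and prefrontal cortex each had 3 per genotype. The labels name no drug or other treatment, and they give libraries of different regions the same replicate numbers without saying that these mark 1 animal. Striatum and prefrontal cortex libraries of the same genotype and number deviated together from their group means (r across genes from 0.232 to 0.368 in all 6 such pairs), so libraries of these regions may not be independent, while the cerebellum libraries did not do so consistently. In the main test the p values measure the spread between libraries of a group, estimated jointly over the 6 groups of region and genotype. Tests in the cerebellum therefore also carry the spread of the striatum and prefrontal cortex libraries.

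Library totals lay between 10639110 and 17431284 counts, with a median of 15082703. The region labels matched the genes measured, since Purkinje and granule cell genes were high in every cerebellum library and *Pcp2* had at most 7 counts in any forebrain library. Some libraries held RNA of other tissue. *Ttr*, a choroid plexus gene, stood at 4547 CPM (counts scaled to a library total common to all samples, with TMM factors) in knock-in replicate 3 and 1818 CPM in WT replicate 1 of the cerebellum, against 4.13 to 12.3 CPM in the other 5. *Nrgn*, a forebrain gene, was at 14.0 CPM in knock-in replicate 2 of the cerebellum and at most 2.30 CPM in the other 6. *Th*, a gene of olfactory bulb interneurons, was at 171 CPM in WT replicate 3 of the prefrontal cortex and at most 5.50 CPM in the other 5 libraries there. In the striatum *Ttr* was high in every library, at 1434 to 8275 CPM in WT and 3974 to 6794 CPM in knock-in mice. *Slc17a7*, at 958 to 1551 CPM in WT prefrontal cortex, ran from 8.40 to 171 CPM in WT striatum and from 49.0 to 110 CPM in knock-in striatum. No striatum library was low in *Ttr*, so striatal results could not be given without such libraries. These genes were chosen after their values had been seen. Results for the 8 genes are therefore also given without those cerebellum libraries.

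The promoter sequences of the 8 genes bear on a study of TBP, since TBP binds the TATA box, the core AGGTCA is part of the half-site to which ROR nuclear receptors such as RORα bind, and SP1 binds the GC box, written GGGCGG. RefSeq promoter windows were at hand for 6 of the 8 genes, all but *Calb1* and *Ppp1r17*. The 250 bases before the RefSeq start (build GRCm38.p6, gene strand, 5′ to 3′) were searched on both strands for TATAAA, for its variant TTTAAA (the same on both strands), for the GC box and for the ROR half-site core, and the capitals below mark matches. The motifs were chosen with these sequences in view. *Pcp2* (chr8:3625548-3625797, minus strand) and *Gng13* (chr17:25716922-25717171, plus strand) are shown because they were the genes that changed most, *Pcp4* (chr16:96467356-96467605, plus strand) because it moved less, and *Slc1a6* (chr10:78780246-78780495, plus strand) because all its matches were GC boxes.
Pcp2: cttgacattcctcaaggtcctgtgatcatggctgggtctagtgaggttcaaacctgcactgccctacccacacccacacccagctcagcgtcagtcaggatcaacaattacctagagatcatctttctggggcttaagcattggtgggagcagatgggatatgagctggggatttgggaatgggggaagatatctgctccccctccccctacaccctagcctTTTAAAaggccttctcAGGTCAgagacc
Gng13: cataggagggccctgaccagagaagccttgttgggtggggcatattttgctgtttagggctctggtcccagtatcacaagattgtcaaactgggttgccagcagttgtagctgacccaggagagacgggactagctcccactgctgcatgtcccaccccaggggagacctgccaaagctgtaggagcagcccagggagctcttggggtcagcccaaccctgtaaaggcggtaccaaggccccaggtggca
Pcp4: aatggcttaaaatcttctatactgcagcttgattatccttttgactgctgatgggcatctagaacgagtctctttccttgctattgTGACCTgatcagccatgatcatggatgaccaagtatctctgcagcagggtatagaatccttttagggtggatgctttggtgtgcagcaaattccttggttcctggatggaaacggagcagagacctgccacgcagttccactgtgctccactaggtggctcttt
Slc1a6: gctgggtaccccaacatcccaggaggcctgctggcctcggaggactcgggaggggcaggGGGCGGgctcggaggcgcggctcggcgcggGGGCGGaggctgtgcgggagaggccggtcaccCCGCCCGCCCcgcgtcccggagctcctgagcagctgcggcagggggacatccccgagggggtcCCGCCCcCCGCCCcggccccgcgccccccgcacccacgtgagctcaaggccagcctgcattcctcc

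In *Pcp2*, TTTAAA lay from 28 to 23 bases before the start and AGGTCA from 12 to 7 bases before it, both on the strand of the gene. The window of *Gng13* held none of the searched strings. *Pcp4* held AGGTCA on the opposite strand, from 164 to 159 bases before the start, and *Slc1a6* held GGGCGG at 6 places, 2 of which overlapped each other. The windows of *Rora* and *Pvalb* had no match. Among 32817 promoter windows of the same length, TATAAA occurred in 12.4%, TTTAAA in 12.1%, GGGCGG in 32.7% and AGGTCA in 14.0%. The genes that changed most, *Pcp2* and *Gng13*, thus shared none of these strings. A match is a run of letters, not a measured binding site.

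*Pcp2* and *Gng13* fell in the knock-in cerebellum to 44.9% and 46.7% of the WT level, and the other 6 genes had lower fitted levels that did not pass the test. With edgeR's quasi-likelihood test, adjusted over all 16841 genes by the Benjamini-Hochberg method, 2 of the 8 were called lower at an adjusted p under 0.05 and 0 were called higher, where 0.315% of all tested genes were called lower and 0.517% higher. At an unadjusted p under 0.05, 4 of the 8 were lower and 0 higher, where 10.1% of all tested genes passed in either direction. All 8 log2 fold changes were below 0, with a median of -0.44 against 0.01 over all tested genes. In 5 of the 8 genes every knock-in library lay under every WT library, which held for 6.47% of all tested genes. The genes are made by the same cells, so these counts are not 8 independent observations. The comparison bears on which genes mutant TBP alters in the brain region most affected in SCA17. In tissue RNA, fewer Purkinje cells and less RNA per Purkinje cell cannot be told apart.

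**Figure D1:**
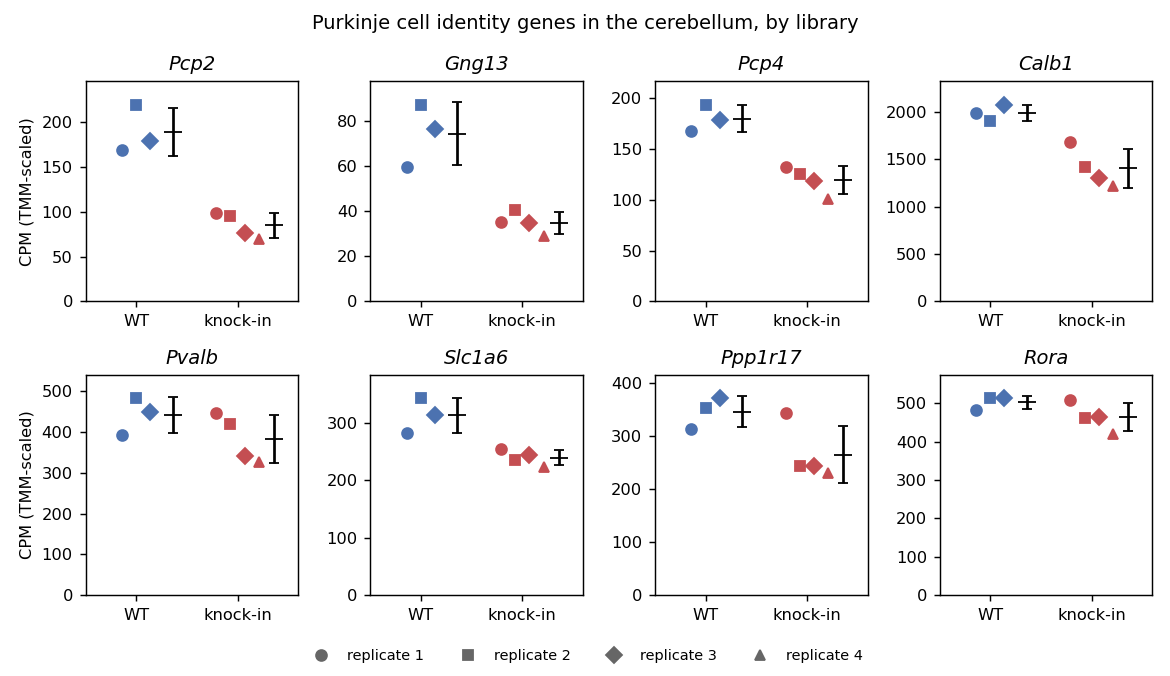
Level in CPM (linear axis from 0) of each of the 8 genes in the 3 WT (blue) and 4 knock-in (red) cerebellum libraries, with the mean and SD in black and a marker shape for each replicate number. *Pcp2* and *Gng13* show the widest gap between genotypes relative to their WT level, and knock-in replicate 4 is the lowest knock-in library in every panel.

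The first group of genes encodes small modulators of G protein and calmodulin signalling. *Pcp2* (ENSMUSG00000004630, chromosome 8, 3623371 to 3625545, minus strand, GRCm38) encodes a GoLoco protein, also called L7, that modulates Gi and Go proteins and is made almost solely by Purkinje cells and retinal bipolar cells. It stood at 169, 220 and 179 CPM in WT replicates 1 to 3 and at 98.3, 95.6, 76.1 and 69.3 CPM in knock-in replicates 1 to 4. The lowest WT library was well above the highest knock-in library. WT mice had a mean of 189 ± 26.8 CPM (SD, n = 3), and knock-in mice one of 84.8 ± 14.3 CPM (SD, n = 4). The log2 fold change was -1.16 with a 95% interval of -1.44 to -0.87 (edgeR, adjusted p = 0.000196).

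*Gng13* (ENSMUSG00000025739, chromosome 17, 25717171 to 25719406, plus strand) encodes a G protein γ subunit best known from taste and retinal bipolar cells and also made by Purkinje cells. It lies 10.19 Mb from *Tbp*, the gene that carries the knock-in allele. Its WT libraries were at 59.6, 87.3 and 76.4 CPM and its knock-in libraries at 35, 40.5, 34.7 and 28.8 CPM, again without overlap. WT mice averaged 74.4 ± 14.0 CPM (SD, n = 3), against 34.7 ± 4.80 CPM (SD, n = 4) for knock-in mice. The log2 fold change was -1.10, with a 95% interval of -1.40 to -0.80 (edgeR, adjusted p = 0.000418).

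*Pcp4* (ENSMUSG00000090223, chromosome 16, 96467606 to 96525793, plus strand) encodes the small IQ-motif protein PEP-19, which speeds the exchange of calcium on calmodulin. It was at 168, 194 and 178 CPM in WT and at 133, 126, 118 and 100 CPM in knock-in libraries. The groups did not overlap, but the log2 fold change of -0.59 (95% interval -1.0 to -0.19) had an adjusted p of 0.216 in the edgeR test of all genes, with an unadjusted p of 0.00649. Fitted to the cerebellum alone, edgeR gave an adjusted p of 0.0225 with the same log2 fold change, and over all the other settings tried the adjusted p of *Pcp4* ran from 4.08e-06 (DESeq2 on the cerebellum alone) to 0.536.

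The calcium buffers came next. *Calb1* (ENSMUSG00000028222, chromosome 4, 15881264 to 15908064, plus strand) encodes calbindin, the fast buffer by which Purkinje cells are usually stained, and it had the highest read count of the 8. Its levels were 1983, 1904 and 2076 CPM in WT and 1684, 1415, 1299 and 1219 CPM in knock-in libraries. All knock-in libraries lay under all WT libraries, with knock-in replicate 1 closest to them. The log2 fold change was -0.50 (95% interval -0.91 to -0.10), which did not pass the edgeR test (adjusted p = 0.353, unadjusted p = 0.0183).

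*Pvalb* (ENSMUSG00000005716, chromosome 15, 78191114 to 78206400, minus strand) encodes parvalbumin, a slow buffer that cerebellar molecular layer interneurons also make. WT libraries were at 394, 483 and 450 CPM and knock-in libraries at 448, 419, 340 and 326 CPM, so the groups overlapped. Its log2 fold change was -0.21, with a 95% interval from -1.06 to 0.65 that was the widest among the 8 genes (edgeR, adjusted p = 0.934). This interval includes a fall as large as that of *Calb1* and a rise of similar size, but its width also reflects the forebrain libraries in the fit. *Pvalb* was at 24.4 ± 20.4 CPM in knock-in striatum and 14.6 ± 2.46 CPM in WT striatum (SD, n = 3 each). In the prefrontal cortex it was at 42.5 ± 23.8 CPM in WT and 39.0 ± 18.6 CPM in knock-in mice (SD, n = 3 each). The cerebellum varied less for its level, with 442 ± 44.8 CPM in WT (SD, n = 3) and 383 ± 59.3 CPM in knock-in mice (SD, n = 4).

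*Slc1a6* (ENSMUSG00000005357, chromosome 10, 78780496 to 78814765, plus strand) encodes EAAT4, the glutamate transporter of Purkinje cell spines. It was at 283, 343 and 315 CPM in WT and at 255, 236, 245 and 224 CPM in knock-in libraries, without overlap. The log2 fold change was -0.39 with a 95% interval of -0.78 to 0.01 (edgeR, adjusted p = 0.502).

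*Ppp1r17* (ENSMUSG00000002930, chromosome 6, 56017497 to 56032689, plus strand) encodes the G-substrate, a target of cGMP-dependent kinase that inhibits protein phosphatases. WT libraries were at 314, 352 and 370 CPM and knock-in libraries at 343, 243, 243 and 229 CPM. Knock-in replicate 1 lay among the WT libraries while the other 3 were below them. The log2 fold change was -0.38 with a 95% interval of -0.79 to 0.02 (edgeR, adjusted p = 0.524).

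*Rora* (ENSMUSG00000032238, chromosome 9, 68653786 to 69388246, plus strand) encodes the nuclear receptor RORα, which is required for the maturation and upkeep of Purkinje cells and is also made by molecular layer interneurons. Its levels of 483, 512 and 512 CPM in WT and 508, 462, 464 and 420 CPM in knock-in libraries overlapped. The log2 fold change was -0.12 with a narrow 95% interval of -0.38 to 0.14 (edgeR, adjusted p = 0.838), which lies wholly above the intervals of *Pcp2* and *Gng13*.

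Exact two-sided permutation tests of the single genes gave p = 0.0286, the smallest that 4 against 3 libraries allow, for *Pcp2*, *Gng13*, *Pcp4* and *Slc1a6* (adjusted p = 0.0571 over the 8 genes in the exact permutation test). *Calb1* followed at an exact p of 0.0571 and *Ppp1r17* at 0.0857, and *Rora* and *Pvalb* were at 0.143 and 0.229 in the same exact test. Leaving out any 1 of the 7 cerebellum libraries left *Pcp2* and *Gng13* as the 2 genes called, with log2 fold changes of -1.24 to -1.03 and -1.23 to -0.97. Without the libraries that held choroid plexus RNA, knock-in replicate 3 and WT replicate 1, the log2 fold changes were -1.18 and -1.23, and the same 2 genes were called. Without knock-in replicate 2 as well, they were -1.25 and -1.36 and again the 2 genes called.

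The kits used do not mark the strand of a read, and 4 of the 8 genes overlap another gene. How reads in the shared part were counted is not known, so they could have gone to either gene or to neither. *Pcp2* overlaps *Pet100* on the opposite strand, which was at 9.15 CPM in WT and 11.9 CPM in knock-in cerebellum (log2 fold change 0.38, edgeR adjusted p = 0.362). *Gng13* overlaps *Chtf18* on the opposite strand, at 4.77 and 4.61 CPM (log2 fold change -0.05, edgeR adjusted p = 0.985). Both partners were far below the level of the Purkinje gene and neither fell with it. These values do not show whether reads in the shared part were left uncounted. *Rora* overlaps *Gm15511*, with a mean of 4.57 counts per cerebellum library, and *Pcp4* overlaps *Igsf5* on its own strand, which has no row in the counts.

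The 4 knock-in libraries differed among themselves in a shared manner. Knock-in replicate 4 was the lowest knock-in library for 8 of the 8 genes, against 26.6% of all tested genes, and knock-in replicate 1 was the highest for 7 of 8, against 28.1% of all tested genes. *Gng13* was the exception, with its highest knock-in value in replicate 2. The summed level of the 8 genes was 3503, 3036, 2820 and 2616 CPM in knock-in replicates 1 to 4 and 3852, 4095 and 4157 CPM in WT replicates 1 to 3. The other Purkinje genes described next had sums of 10320, 9471, 7558 and 7668 CPM in the same knock-in order and 12368, 12517 and 11924 CPM in WT, so knock-in replicate 1 was highest there too. The order was not particular to Purkinje genes. The summed molecular layer interneuron genes stood at 3077, 2428, 2057 and 2205 CPM and the Bergmann glia and astrocyte genes at 3998, 3663, 3552 and 3515 CPM in knock-in replicates 1 to 4, again with replicate 1 highest. The granule cell list ran otherwise, with knock-in replicate 1 lowest at 4150 CPM and replicate 4 highest at 4688 CPM.

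A list of 22 other Purkinje cell genes, chosen with earlier results of these data known, moved in the same direction in the cerebellum. In edgeR, 4 of the 22 were called lower and 0 higher (12 were lower at an unadjusted p under 0.05), and 21 of the 22 log2 fold changes were below 0, with a median of -0.36. *Plcb3*, phospholipase C β3, had the largest fall of the list, from 65.7, 90.1 and 78.0 CPM in WT to 46.4, 41.2, 38.4 and 42.2 CPM in knock-in libraries (log2 fold change -0.89, edgeR adjusted p = 0.000418). *Aldoc*, the zebrin II antigen of Purkinje cell stripes and also an astrocyte enzyme, had -0.62 (edgeR adjusted p = 0.00912). *Inpp5a*, the inositol trisphosphate phosphatase at the centre of the study, had -0.51 (edgeR adjusted p = 0.0275). The paper picked *Inpp5a* among genes lower in the knock-in cerebellum in this RNA sequencing, so its place among the 4 called was not an independent result. Its call was lost when any 1 library but knock-in replicate 1 was left out (edgeR adjusted p from 0.056 to 0.117), and without knock-in replicate 1 it was -0.64 (edgeR adjusted p = 0.00097).

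Other members of that list did not pass the test. *Car8*, which encodes a protein that lowers the affinity of the inositol trisphosphate receptor, averaged 2338 ± 199 CPM (SD, n = 3) for WT and 1575 ± 329 CPM (SD, n = 4) for knock-in mice, and the receptor gene *Itpr1* 846 ± 25.9 and 624 ± 108 CPM, with adjusted p of 0.153 and 0.274 in edgeR. *Plcb4*, the phospholipase C β isoform that is high in the zebrin-negative stripes, stood at 486 ± 25.9 and 475 ± 50.7 CPM, with a log2 fold change of -0.03. *Plcb4*, *Car8* and *Itpr1* were named after their values had been seen, and the difference between *Plcb3* and *Plcb4* was not tested. Without knock-in replicate 3 and WT replicate 1, *Plcb3* was the 1 gene of the 22 that stayed called, at a list median of -0.29 with 18 of 22 below 0.

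Marker genes of the other neurons and of the macroglia had no calls in the cerebellum. None of the 12 granule cell genes was called by edgeR (0 at an unadjusted p under 0.05), although 10 of the 12 log2 fold changes were below 0, with a median of -0.17 and *Cbln3* and *Gabra6* at -0.36 and 0.05. The summed granule cell level was 4150 to 4688 CPM in knock-in and 4513 to 5302 CPM in WT libraries. None of 10 molecular layer interneuron genes was called by edgeR (1 at an unadjusted p under 0.05, 5 of 10 below 0, median -0.01), with sums of 2057 to 3077 CPM in knock-in and 2308 to 2467 CPM in WT libraries. Bergmann glia and astrocyte genes had 0 of 8 calls (0 at an unadjusted p under 0.05, 2 of 8 below 0, median 0.06), and so had the oligodendrocyte genes (6 of 8 below 0, median -0.08). No list member was at 0 in these cell types.

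Microglia genes moved opposite to the Purkinje genes. In edgeR 6 of 8 were called higher and 0 lower in the knock-in cerebellum, with a median log2 fold change of 0.77 and sums of 225 to 310 CPM in knock-in and 153 to 157 CPM in WT libraries. *C1qa*, a subunit of complement C1q, was at 7.13, 7.21 and 8.01 CPM in WT and 21.2, 18.6, 16.2 and 16.3 CPM in knock-in libraries. *C1qb*, *C1qc* and *Csf1r* rose by log2 fold changes of 1.1, 0.96 and 0.71. Whether the share of RNA from microglia had a part in the lower Purkinje values was not tested.

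**Figure D2:**
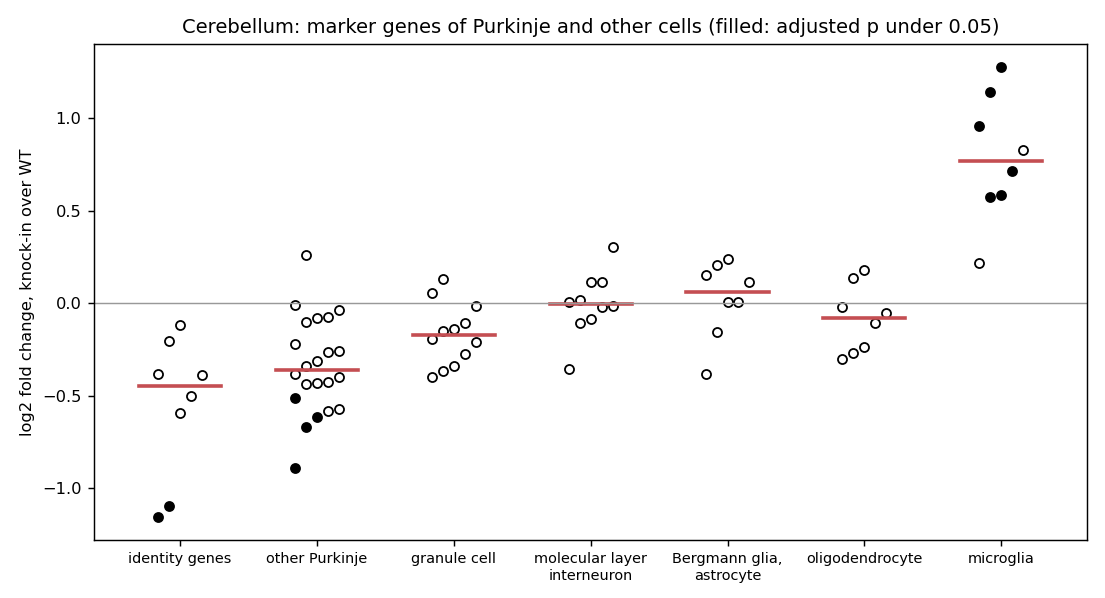
Log2 fold change, knock-in over WT cerebellum, of each tested gene in 7 marker lists. Each point is a gene, filled where the edgeR adjusted p was under 0.05, and the red bar is the median of the list. The 8 identity genes (median -0.44) and the 22 other Purkinje genes (median -0.36) lie mostly below 0, the 8 microglia genes (median 0.77) above it, and the others near it.

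Few relatives of the 8 genes passed any test. Of the other 10 G protein γ subunit genes, 0 were called by edgeR (0 at an unadjusted p under 0.05) and 10 had a log2 fold change above 0, with a median of 0.25. The most abundant of them, *Gng3* and *Gng2*, had 0.10 and 0.08, while *Gng13* had -1.10. Among the 10 other GoLoco genes and Gi and Go α subunit genes, 0 were called (1 lower and 1 higher at an unadjusted p under 0.05), with *Gnai1* at -0.14 and *Gnao1* at -0.22 and a median of 0.10. Calmodulin and IQ-motif genes gave 0 calls of 6 (1 at an unadjusted p under 0.05), with *Calm2* at -0.06.

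The other EF-hand calcium-binding genes gave 0 calls of 10 in edgeR (1 at an unadjusted p under 0.05) and a median of -0.07, with *Calb2* (calretinin, a granule cell protein in the cerebellum) at 0.33 and *Vsnl1* at -0.29. The other glutamate transporters gave 0 calls of 3 tested (0 at an unadjusted p under 0.05), and *Slc1a3*, the Bergmann glia transporter GLAST, stood at 2144 ± 128 and 2158 ± 256 CPM (SD, n = 3 and 4) in WT and knock-in mice. Of 12 genes of cGMP signalling and protein phosphatases, 0 were called (1 lower and 1 higher at an unadjusted p under 0.05). Of the other ROR-related nuclear receptors, 0 of 4 were called (1 at an unadjusted p under 0.05), with *Nr1d1* at -0.01. Of 5 listed genes described as RORα targets in Purkinje cells, 3 were among the 8 genes here (*Pcp2*, *Pcp4* and *Slc1a6*). The other members, *Itpr1* and *Shh*, had log2 fold changes of -0.44 and -0.03. Neither was called by edgeR (1, *Itpr1*, was lower at an unadjusted p under 0.05). *Shh* was low, at a mean of 2.27 CPM in WT and 2.22 CPM in knock-in cerebellum.

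The falls were of unequal size. Relative to *Calb1* in the same library, *Pcp2* and *Gng13* were lower in knock-in than in WT mice and *Rora* and *Pvalb* were higher. The log2 ratio of *Pcp2* to *Calb1* was -3.55, -3.12 and -3.54 in WT and -4.10, -3.89, -4.09 and -4.13 in knock-in libraries, a difference of -0.65. The same difference was -0.58 for *Gng13*, 0.39 for *Rora* and 0.30 for *Pvalb*. Each of these 4 ratios separated the genotypes completely, with p = 0.0286 in a two-sided exact permutation test, the smallest it can give, and an adjusted p of 0.05 over the 7 ratios, which is not under the threshold. *Pcp4*, *Ppp1r17* and *Slc1a6* had differences of -0.09, 0.11 and 0.13 with exact permutation p of 0.457, 0.286 and 0.286, so no difference from *Calb1* was detected for them in 7 libraries. With *Pcp4* as the reference, the same 4 genes were at an exact permutation p of 0.0286, with differences of -0.56 for *Pcp2*, -0.49 for *Gng13*, 0.48 for *Rora* and 0.38 for *Pvalb*. A ratio shows unequal change and not which gene of the pair changed.

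**Figure D3:**
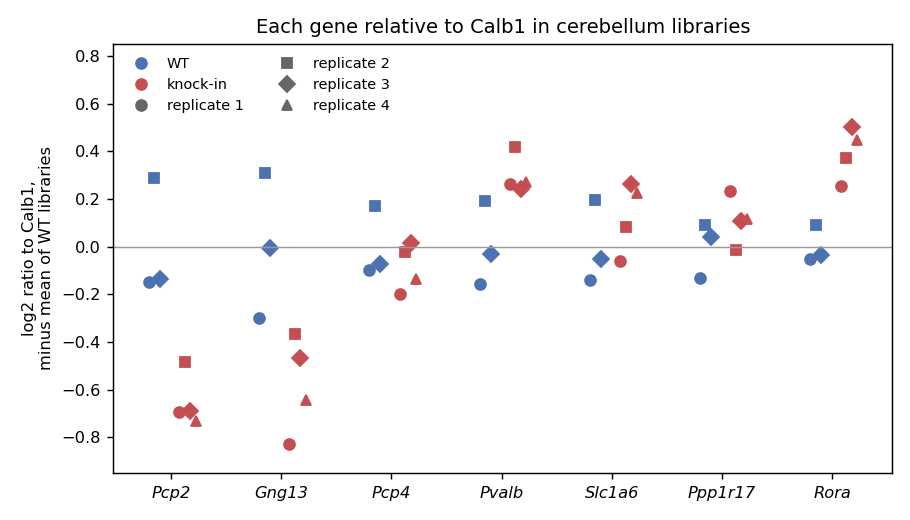
Log2 ratio of each gene to *Calb1* in the 7 cerebellum libraries, set to 0 at the mean of the WT libraries (blue, WT; red, knock-in; marker shape, replicate number). The knock-in points of *Pcp2* and *Gng13* lie below all WT points, those of *Rora* and *Pvalb* above them, and the other 3 genes overlap.

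In WT mice the 8 genes differed widely in how far they belonged to the cerebellum. Compared per kb of exon, the WT cerebellum level was highest for *Pvalb* (425 ± 43.0 CPM per kb, SD, n = 3) and *Calb1* (410 ± 17.7), which did not differ beyond their spread. *Ppp1r17* (197 ± 16.5) and *Pcp4* (175 ± 12.8) came next and overlapped, followed by *Slc1a6* (146 ± 14.0), by *Pcp2* (103 ± 14.7) and *Gng13* (96.3 ± 18.1), which overlapped, and by *Rora* (38.4 ± 1.31). The knock-in cerebellum had the same order, from 368 CPM per kb for *Pvalb* to 35.5 for *Rora*, with *Pcp2* at 46.4 and *Gng13* at 45.0. Exon lengths were merged over all transcripts, so a gene with long alternative exons such as *Rora* is placed low by this measure.

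*Pcp2* and *Ppp1r17* were nearly confined to the cerebellum. Forebrain libraries held 1 to 7 counts of *Pcp2* and 0 to 22 of *Ppp1r17*, against at least 1147 and 3788 in each cerebellum library, so no fold change against the forebrain is given for them. *Slc1a6* was 72-fold higher in WT cerebellum than in WT striatum and 33.1-fold higher than in WT prefrontal cortex. The factors were 30.2 and 10.4 for *Pvalb*, 10.6 and 5.14 for *Gng13*, 5.84 and 3.93 for *Rora* and 4.05 and 7.10 for *Calb1*, each past the threshold in edgeR. *Pcp4* was the exception. It stood at 350 ± 64.4 CPM in WT striatum, 180 ± 13.1 in WT cerebellum and 86.5 ± 14.9 in WT prefrontal cortex (SD, n = 3 each), so the cerebellum was lower than the striatum (log2 fold change -0.96, edgeR adjusted p = 0.000804) and higher than the prefrontal cortex (1.06, edgeR adjusted p = 0.000422). Of the 6 genes with at least 10 counts in every forebrain library, 5 were called higher in cerebellum than striatum, 1 lower, and 6 higher than prefrontal cortex, where 27.8% and 25.1% of all tested genes were, and 28.7% and 26.9% were called lower.

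**Figure D4:**
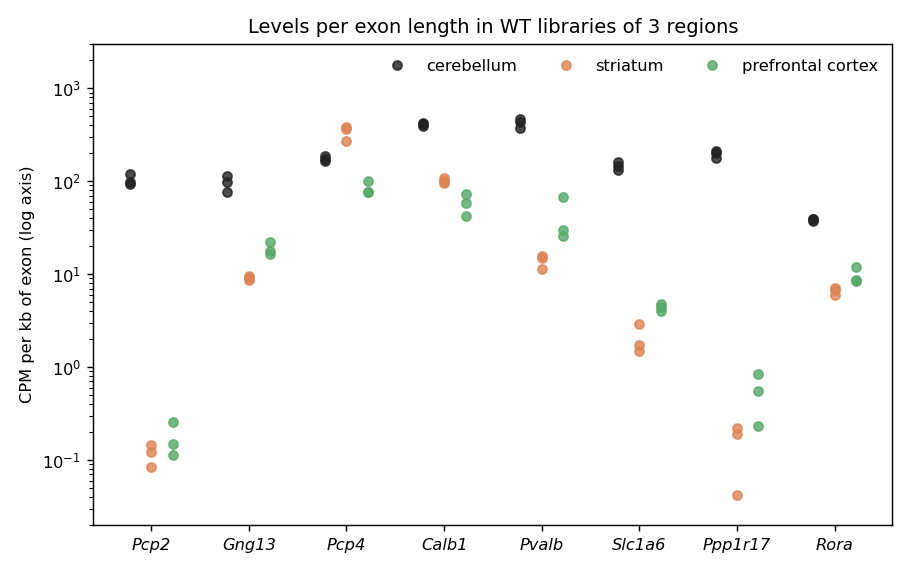
Level of each gene in WT libraries, in CPM per kb of exon on a log axis, for the cerebellum (black), striatum (orange) and prefrontal cortex (green). Each point is 1 of 3 libraries. *Pcp2* and *Ppp1r17* fall to below 1 CPM per kb in the forebrain, and *Pcp4* is higher in the striatum than in the cerebellum.

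Neither forebrain region had a call among the genes measured there. *Pcp2* and *Ppp1r17* were in the test only through their cerebellum counts and had too few forebrain counts to be called, so they are left out and 6 genes remain. In the striatum edgeR called 0 of 6, where 0.19% of all tested genes were called lower and 0.392% higher, and in the prefrontal cortex it called 0 of 6, where the shares were 0.0178% and 0.0891%. At an unadjusted p under 0.05 the count was 1 (*Pcp4*) in the striatum, against 8.12% of all tested genes, and 0 in the prefrontal cortex, against 5.93%, and DESeq2 on the same groups also called 0 in each. The median log2 fold change of the 6 was 0.01 for the striatum and -0.03 for the prefrontal cortex.

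*Gng13* had striatal values of 6.68, 6.99 and 7.42 CPM in WT and 7.23, 7.55 and 9.58 CPM in knock-in mice, with overlap and a log2 fold change of 0.21 (95% interval -0.15 to 0.57). In the prefrontal cortex it was at 13.8, 12.7 and 17.0 CPM in WT and 12.2, 13.4 and 14.8 CPM in knock-in mice, with a log2 fold change of -0.11 (95% interval -0.45 to 0.24). Without WT replicate 3, the library with high *Th*, it was 0.026. *Pcp4* in the striatum, where medium spiny neurons express it, was at 375, 398 and 276 CPM in WT and 213, 289 and 265 CPM in knock-in mice. That log2 fold change of -0.45 (95% interval -0.88 to -0.02, edgeR adjusted p = 0.576) came with overlapping groups.

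*Calb1* was at 489, 462 and 522 CPM in WT and 329, 543 and 294 CPM in knock-in striatum, so knock-in replicate 2 was above all WT libraries and the other knock-in libraries below them. *Pvalb* in the striatum lay at 16.4, 15.6 and 11.8 CPM in WT and 14.5, 10.9 and 47.9 CPM in knock-in mice. Its log2 fold change of 0.74 rested on knock-in replicate 3, and it was -0.20 without that library. *Rora* in the striatum was between 77.6 and 92.9 CPM in all 6 libraries, and *Slc1a6* between 2.57 and 7.5 CPM.

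**Figure D5:**
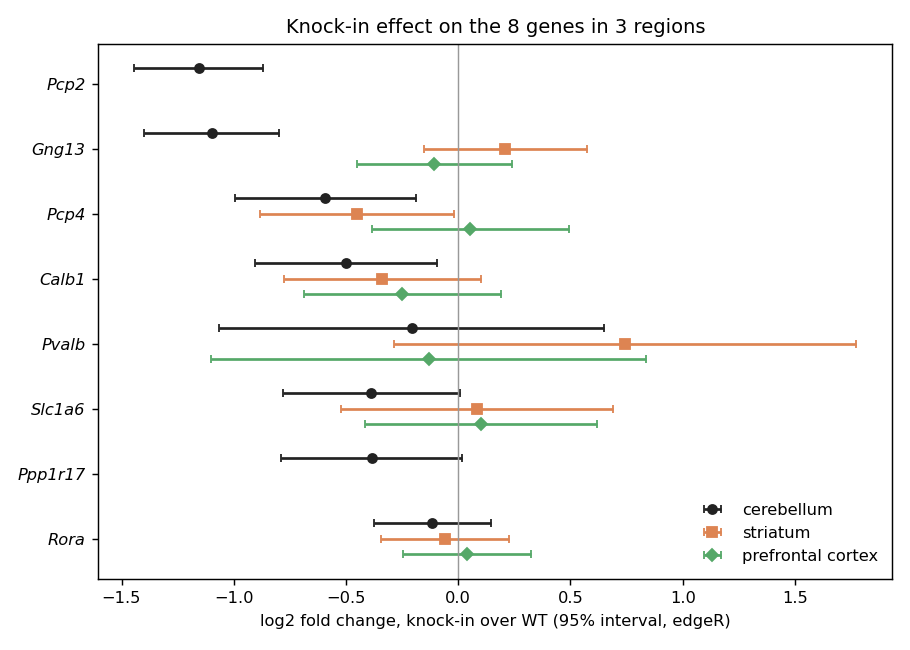
Log2 fold change, knock-in over WT, of each gene with its 95% interval from edgeR, in the cerebellum (black), striatum (orange) and prefrontal cortex (green). *Pcp2* and *Ppp1r17* are shown for the cerebellum alone because forebrain libraries held few counts of them. The cerebellar intervals of *Pcp2* (-1.44 to -0.87) and *Gng13* (-1.40 to -0.80) lie farthest below 0.

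Whether the knock-in effect differed between regions was tested as an interaction. *Gng13* had the largest such difference among the genes with forebrain counts. The effect in the cerebellum minus that in the striatum was -1.31 on the log2 scale (95% interval -1.78 to -0.84, unadjusted p = 1.99e-05), and the effect in the cerebellum minus that in the prefrontal cortex was -0.99 (95% interval -1.45 to -0.53, unadjusted p = 0.000274). Neither passed the adjustment over all genes in edgeR (adjusted p = 0.111 and 0.217), and both did in DESeq2 (adjusted p = 0.000456 and 0.0203). Over all settings tried the adjusted p ran up to 0.234 against the striatum and 0.586 against the prefrontal cortex, and the DESeq2 values were the lowest. In edgeR 0 of the 6 genes with forebrain counts and 0% of all tested genes had a call below 0 in either interaction, and the shares called above 0 were 0.0119% and 0.0178%. At an unadjusted p under 0.05 the count was 1 of 6 (*Gng13*) against the striatum, where 6.69% of all tested genes passed, and 2 of 6 (*Gng13* and *Pcp4*) against the prefrontal cortex, where 6.12% did. In DESeq2 *Gng13* was the 1 gene called in each. DESeq2 called more genes than edgeR in the cerebellum, and its share of all tested genes in these interactions is not given here.

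For the other genes the intervals of the difference were wide. *Pcp4* had a difference of -0.14 (95% interval -0.73 to 0.45) against the striatum and -0.65 (95% interval -1.24 to -0.05) against the prefrontal cortex. *Calb1* had -0.16 (-0.76 to 0.43) and -0.25 (-0.85 to 0.35) in the same order. An effect of *Calb1* particular to the cerebellum was thus not detectable with these libraries, and equal effects were not shown either. *Rora* had -0.06 and -0.16, with intervals that included 0.

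The genes whose levels ran most like those of 7 of the 8 over all 19 libraries, by Pearson's r of log2 CPM as a description, were *Tspan9* for *Pcp2* (r = 0.995), *Nexn* for *Pcp4* (0.955), *Chil5* for *Calb1* (0.980), *Mindy2* for *Ppp1r17* (0.993), *Tmem266* for *Slc1a6* (0.994), *Kcng4* for *Pvalb* (0.985) and *Clec2l* for *Gng13* (0.974). These libraries fall into 3 regions, so r mostly reflects the gap between cerebellum and forebrain. *Inpp5a* came second for *Calb1* (0.979). *Tspan9*, a tetraspanin, was at 374 CPM in WT and 311 CPM in knock-in cerebellum (log2 fold change -0.26, edgeR adjusted p = 0.11). Over the 7 cerebellum libraries, where the genotypes are apart, the 5 genes closest to *Pcp2* were *Car9*, *1700037H04Rik*, *Tbc1d8b*, *Col18a1* and *Creg1* (r from 0.991 to 0.995). *Car9*, a carbonic anhydrase, stood at 25.3 CPM in WT and 4.07 CPM in knock-in mice (log2 fold change -2.64, edgeR adjusted p = 0.000644).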

How the data were processed

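Libraries were made from total RNA with the SMART-Seq v4 and Nextera XT kits and sequenced on an Illumina HiSeq1000. The authors deposited raw read counts per Ensembl gene and, as a signal table, these counts after division by each library's size factor. The submitters' processing notes name bcl2fastq 2.17.1.14, STAR 2.5.2b, HTSeq, DESeq2 1.10.1 and build GRCm38.p3, and the paper's methods name Cufflinks and Cuffdiff. The annotation and the strand setting of the counting were not given in the sources used here. All deposited columns per sample were mapped by their names.

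The test used edgeR 4.0.16 under R 4.3.3, with filterByExpr over the 6 groups, TMM scaling and 1 quasi-likelihood fit of all 19 libraries (13 residual degrees of freedom), with Benjamini-Hochberg adjustment over 16841 genes and a threshold of 0.05. Log2 CPM used a prior count of 2. GENCODE M21 gave names for 40254 of 41128 identifiers. Ratios and single genes used two-sided exact permutation tests over 35 splits. Chi-square per degree of freedom between libraries of a group was 4.84 to 28.8 over 21 pairs, so none was a copy. The edgeR step was tested on simulated data.

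The 8 genes and all lists were chosen with earlier results of these data known. Named genes were the 8, *Inpp5a*, up to 5 called genes of a list or otherwise its 2 most abundant, overlapping genes, and the genes most alike in pattern. Some genes that the rule names are not reported here. Of 18 further lists, those for choroid plexus, olfactory bulb, thalamus and forebrain interneurons, used as signs of other tissue, had 0 calls in the cerebellum by edgeR (at an unadjusted p under 0.05, 0 choroid plexus genes, 1 olfactory bulb gene lower, 1 thalamus gene higher, and 1 lower and 2 higher for forebrain interneurons). Alternatives were DESeq2 1.42.0, its size factors, other filters, regions fitted alone, the replicate number as a block, a sex covariate, a length and GC correction, and libraries left out.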

Additional observations from a re-analysis of the deposited data

Results flagged for a closer look

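*Ppp1r17* in the knock-in cerebellum had 1 library far from the other 3. Knock-in replicate 1 stood at 343 CPM against 229 to 243 CPM in the others, and its gap to the nearest of them was 0.879 of the whole range of the group, above Dixon's critical value at the 95% level for 4 samples. The same library was also the highest knock-in library for 6 of the 7 other genes. The knock-in group of each of the 8 genes was examined in this way, and chance marks about 5% of such groups. Without knock-in replicate 1 the log2 fold change of *Ppp1r17* was -0.54.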

How the results depend on the processing

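*Pcp2* and *Gng13* stayed called lower in the knock-in cerebellum under every alternative in which they were tested. A minimum of 10 counts in every library removed *Pcp2*, which left 1 of the 8 called. DESeq2 on the cerebellum alone called 5 (*Pcp2*, *Gng13*, *Pcp4*, *Calb1* and *Slc1a6*). Over all genes the counts higher and lower were 87 and 53, against 175 and 161 with DESeq2 on the same groups, 211 and 278 with DESeq2 on the cerebellum alone, 88 lower with edgeR on the cerebellum alone, and 51 and 21 without the libraries that held choroid plexus or forebrain RNA, an alternative chosen after seeing the data. Leaving out 1 cerebellum library gave 48 to 94 higher and 23 to 64 lower, with 50 and 23 without WT replicate 2 and 48 and 30 without WT replicate 3. Among the 6 genes with forebrain counts, the difference of effect between cerebellum and striatum was called for 1, *Gng13*, with DESeq2. The same gene was called with no filter beyond 1 count in any library. When 1 library was left out, 0 to 1 were called (1 without WT cerebellum replicate 1). Against the prefrontal cortex DESeq2 called 1, *Gng13*. The exact permutation tests of single genes, where 4 genes reached the smallest p, gave 0 once a library was left out, since fewer splits cannot reach 0.05. Same-numbered libraries did not consistently deviate together between genotypes (correlations of -0.245 to 0.172) or between the cerebellum and the striatum (-0.104 to 0.163) or prefrontal cortex (-0.060 to 0.077), so the numbers were not taken as pairs in these comparisons. They did between striatum and prefrontal cortex (0.232 to 0.368 in 6 same-numbered pairs, -0.253 to -0.076 in 12 others), which were not compared with each other. Fitted to the cerebellum alone, without those libraries, edgeR called the same 2 genes and *Pcp4*, and the call of *Inpp5a* was lost (edgeR adjusted p = 0.113). With the replicate number as a block, *Pcp2* had -1.07 and *Gng13* -1.0 in the cerebellum, 2 of the 8 were called, and the call of *Inpp5a* was lost (-0.45, edgeR adjusted p = 0.0678).

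Some, but not all, of the log2 fold changes that never passed the test changed sign when 1 library was left out. In the striatum they ran from -0.90 to 0.69 for *Ppp1r17*, -0.46 to 0.41 for *Slc1a6*, -0.12 to 0.0024 for *Rora* and -0.20 to 1.09 for *Pvalb*. In the prefrontal cortex they ran from -0.20 to 0.42 for *Pcp2*, -0.25 to 0.28 for *Pcp4*, -0.063 to 0.22 for *Rora*, -0.45 to 0.43 for *Pvalb* and -0.19 to 0.026 for *Gng13*, and *Pvalb* was at 0.053 with a sex covariate made from *Xist* and Y-linked counts. Differences of effect against the striatum ran from -0.33 to 0.16 for *Calb1*, -1.07 to 0.52 for *Ppp1r17*, -0.80 to 0.079 for *Slc1a6* and -0.12 to 0.0081 for *Rora*. Against the prefrontal cortex they ran from -0.25 to 0.64 for *Ppp1r17* and -0.63 to 0.25 for *Pvalb*, which was at 0.030 with the replicate number as a block across regions. The cause of these changes was not tested. *Pcp2* and *Ppp1r17* had too few forebrain counts for their ranges there, or for their differences of effect, to be read as results.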

Other observations

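*Plcb3*, the gene with the largest fall among the 22 other Purkinje genes in the cerebellum, had log2 fold changes of -0.13 in striatum and -0.06 in prefrontal cortex, and the difference of its effect was -0.76 (95% interval -1.13 to -0.40) against the striatum and -0.83 (95% interval -1.19 to -0.46) against the prefrontal cortex, with adjusted p of 0.24 and 0.179 in edgeR.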
